A study of Mus musculus with 4 samples.

Results

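The genes described here are 9 effectors of lipid handling in fat cells: Fabp4, Fabp5, Lpl, Cd36, Adipoq, Plin2, Acsl1, Pnpla2 and Lipe. They were followed on every array probe set that the platform annotation gives to only one of these symbols. This found 17 probe sets for 8 of the 9 genes, out of 45037 non-control probe sets and 18193 named genes on the array. Probe sets of a gene are called the brightest, the second, the third and the fourth by their mean log2 signal over the 4 arrays, which serves to name them and compares no levels. Acsl1, an acyl-CoA synthetase, was not analysed here, because no probe set was matched to it. The arrays hold RNA of immortalized mouse embryonic fibroblasts whose gene for PTIP is flanked by loxP sites on both alleles. PTIP -/- cells had been infected with a retrovirus expressing Cre recombinase, which removes the flanked stretch, and PTIP +/+ cells with the vector alone, so that they keep the unrecombined alleles. The growth protocol gives puromycin selection in serum medium for all cells. Each genotype gave 2 RNAs, numbered 1 and 2, and the labels do not say what a number stands for. P-values therefore describe the spread between these RNAs and nothing beyond it.

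Fat cells take up fatty acids and store them as triglyceride in lipid droplets. Lipoprotein lipase, the product of Lpl, frees fatty acids from circulating lipoproteins, and the scavenger receptor CD36 helps them across the membrane. Inside the cell, acyl-CoA synthetases activate them and fatty acid binding proteins (Fabp4 in fat cells and macrophages, Fabp5 in skin and many other cells) carry them. Perilipin 2, from Plin2, coats the droplets of most cell types, and the lipases ATGL, from Pnpla2, and HSL, from Lipe, release the stored fat again. Adiponectin, from Adipoq, is a hormone secreted by mature fat cells. Several of these genes are known targets of PPARG, the nuclear receptor that directs fat cell formation, which binds DNA together with RXR at paired AGGTCA half-sites.

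Upstream sequence is shown for 3 members that differ in what the arrays read: Plin2 and Pnpla2, whose brightest probe sets were both highest on PTIP -/- array 2, and Adipoq, which stayed under the level that could be read. The windows come from RefSeq (GRCm38.p6), which held 6 of the 9 members (Plin2, Cd36, Lipe, Pnpla2, Acsl1 and Adipoq). They are printed 5′ to 3′ on the strand of the gene and stop at its outermost annotated boundary. The Plin2 window is chr4:86670218-86670309 on the minus strand, the Pnpla2 window chr7:141454938-141455187 on the plus strand and the Adipoq window chr16:23146286-23146535 on the plus strand. Capitals mark matches, on either strand, to the motifs searched. These were the nuclear receptor half-site AGGTCA, the box known as CCAAT, the GC box GGGCGG, the E-box CACGTG and the TATA box TATAAA.
Plin2: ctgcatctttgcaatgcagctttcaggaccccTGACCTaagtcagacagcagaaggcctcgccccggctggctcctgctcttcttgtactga
Pnpla2: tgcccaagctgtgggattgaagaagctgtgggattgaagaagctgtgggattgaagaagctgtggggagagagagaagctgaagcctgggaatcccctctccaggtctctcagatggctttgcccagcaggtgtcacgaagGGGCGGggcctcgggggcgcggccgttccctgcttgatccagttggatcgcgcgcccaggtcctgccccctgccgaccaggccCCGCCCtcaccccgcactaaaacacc
Adipoq: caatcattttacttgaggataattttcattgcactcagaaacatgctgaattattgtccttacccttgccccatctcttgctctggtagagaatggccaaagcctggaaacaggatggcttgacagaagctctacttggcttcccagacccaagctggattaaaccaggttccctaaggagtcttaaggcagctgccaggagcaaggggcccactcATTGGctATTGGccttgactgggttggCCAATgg

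Plin2 holds 1 half-site, read on the opposite strand at bases 33 to 38 of its 92-base window. A half-site occurs in 5.32% of the 32851 RefSeq windows cut to that length, by their first 92 bases. Unlike the Plin2 window, these were not trimmed at gene boundaries. Pnpla2 holds 2 GC boxes in 250 bases, where 32.7% of windows hold at least 1. Adipoq holds 3 CCAAT boxes, where 33.8% of windows hold at least 1. A pair of half-sites 1 base apart, which overlaps the single half-site by its letters, was in none of the 3 windows and in 0.0335% of the 250-base windows. These are matches of letters only.

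Fibroblast markers were readable in all 4 RNAs, and none of the measured markers of mature fat cells was. Signals are linear array intensities, and 47.7, the 40th percentile of all probe sets by mean log2 signal, was taken as the lowest level that can be read. Probe sets were tested where their mean over the 4 arrays reached it. All 8 fibroblast markers measured were tested, and their summed signal was 146236 and 126816 in PTIP -/- against 153814 and 160689 in PTIP +/+. Of 6 markers of the mature fat cell, 4 were matched, and their summed signal was 227.2 and 34.4 in PTIP -/- against 220.3 and 101.1 in PTIP +/+. Among these Cidec and Lep, a droplet protein and the hormone leptin, lay under 47.7 on all 4 arrays. Retn, the resistin gene, was under it on PTIP -/- array 2, and Cebpa, a factor of fat cell formation, exceeded it only on PTIP +/+ array 1, at 104.3. The sum of 34.4 on PTIP -/- array 2 thus holds only signals under 47.7. Sums of different probe sets are set against each other only between arrays. Paxip1, the gene of PTIP, read 43.5 and 74.6 in PTIP -/- against 1029.5 and 1040.1 in PTIP +/+, as the labels have it. Between 34.1% and 40.6% of probe sets lay under 47.7 on each array. In bulk RNA, fewer cells that make a transcript and less of it in each cell cannot be told apart.

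Fabp4 differed between the RNA numbers in both genotypes. Its brightest probe set read 16.1 on array 1 and 4029.7 on array 2 of PTIP -/-, and 60.2 on array 1 and 3351.8 on array 2 of PTIP +/+. The second read 2.7 and 2131.0 in PTIP -/- against 5.3 and 1197.8 in PTIP +/+, in the same order of arrays. On both, each number 2 array was far above each number 1 array in either genotype, and the number 1 arrays were near or under the level that can be read. For the second probe set the mean log2 signal was 10.64 ± 0.59 in number 2 and 1.92 ± 0.69 in number 1 (SD, n = 2). The signal was at least 33.5-fold higher in number 2 once signals under 47.7 had been raised to that level, with a measured log2 difference of 8.72 ± 0.51 (SE). Limma's test over all 27022 probe sets, with genotype in the fit, gave adjusted p = 0.0445 (from 0.00307 to 0.411 over the alternatives, the highest with no level filter). Both number 1 arrays lay under 47.7, so this probe set was tested only because of its number 2 arrays, and its p is given as a description.

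For the brightest probe set the mean log2 signal was 11.84 ± 0.19 in number 2 and 4.96 ± 1.35 in number 1 (SD, n = 2). That is 118-fold higher in number 2 by the measured signals (log2 6.88 ± 0.60, SE), and 68.6-fold once signals were raised to 47.7. It missed the threshold with limma (adjusted p = 0.0678) and passed it in 6 of 9 alternatives (0.008 to 0.411). The mean of its number 1 arrays lay under 47.7, so it too was tested only because of its number 2 arrays. Its p is likewise given as a description. The third read 65.5 and 93.3 in PTIP -/- against 38.5 and 74.1 in PTIP +/+, a log2 difference between the numbers of 0.73 ± 0.24 (SE) with adjusted p = 0.234 in limma. The fourth lay under 47.7 throughout, at 7.1 and 32.4 in PTIP -/- against 11.8 and 36.6 in PTIP +/+. All 4 probe sets thus read higher in number 2 in each genotype, the last of them only within signals that have no level.

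Within a number, the genotypes differed less in Fabp4 than the numbers did, on the brightest and the second probe set. In number 2, PTIP -/- was 1.20-fold higher on the brightest probe set and 1.78-fold higher on the second, both at readable levels in both genotypes. In number 1 the brightest read 16.1 in PTIP -/-, which is under the level, against 60.2 in PTIP +/+, so that PTIP -/- was at least 1.26-fold lower, and the second probe set had no level in either genotype. The third read higher in PTIP -/- in both numbers, with 38.5 under the level in PTIP +/+ array 1. Over all arrays the genotype difference was -0.82 ± 3.34 and -0.07 ± 4.20 (log2, SE), and limma gave adjusted p = 0.9998 for both. In this fit the spread between the numbers is part of the SE. Pparg, the nuclear receptor upstream of Fabp4 in fat cells, read 3.9 and 36.0 in PTIP -/- against 143.1 and 750.0 in PTIP +/+. Both PTIP -/- signals of Pparg lie under 47.7, which does not show that it is absent. Whether Pparg has a part in the Fabp4 result was not tested.

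Markers of cell types that also make Fabp4 are given beside this result. The 8 macrophage markers summed to 787.4 and 590.7 in number 2 (PTIP -/- first) against 1039.1 and 863.8 in number 1. They did not go 1 way, as 2 of the 6 tested were higher in number 2 and 4 lower. Lyz2 read 99.9 and 36.0 in number 2 against 333.3 and 153.4 in number 1. Cd68 read 107.6 and 112.1 in number 2 against 93.4 and 73.0 in number 1. The 7 endothelial markers summed to 330.0 and 370.1 in number 2 against 489.9 and 339.3 in number 1, and 3 of the 7 were tested. Pecam1 and Tie1 lay under 47.7 on all arrays, whereas Kdr, a receptor of VEGF, read 124.1 and 126.5 in number 2 against 172.0 and 107.0 in number 1. Of the 8 fibroblast markers, Thy1 and Pdgfra read lower in number 2, though neither passed in limma (adjusted p = 0.123 and 0.0827). Thy1 read 1500.7 and 239.2 in number 2 against 14822.9 and 16080.1 in number 1, and Pdgfra 174.2 and 583.2 against 3563.4 and 5010.1. The other 6 differed between the numbers by less, such as Pdgfrb at 2766.3 and 4021.4 in number 2 against 4378.2 and 3883.7 in number 1. Whether these differences have a part in the Fabp4 result was not tested.

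**Figure D1:**
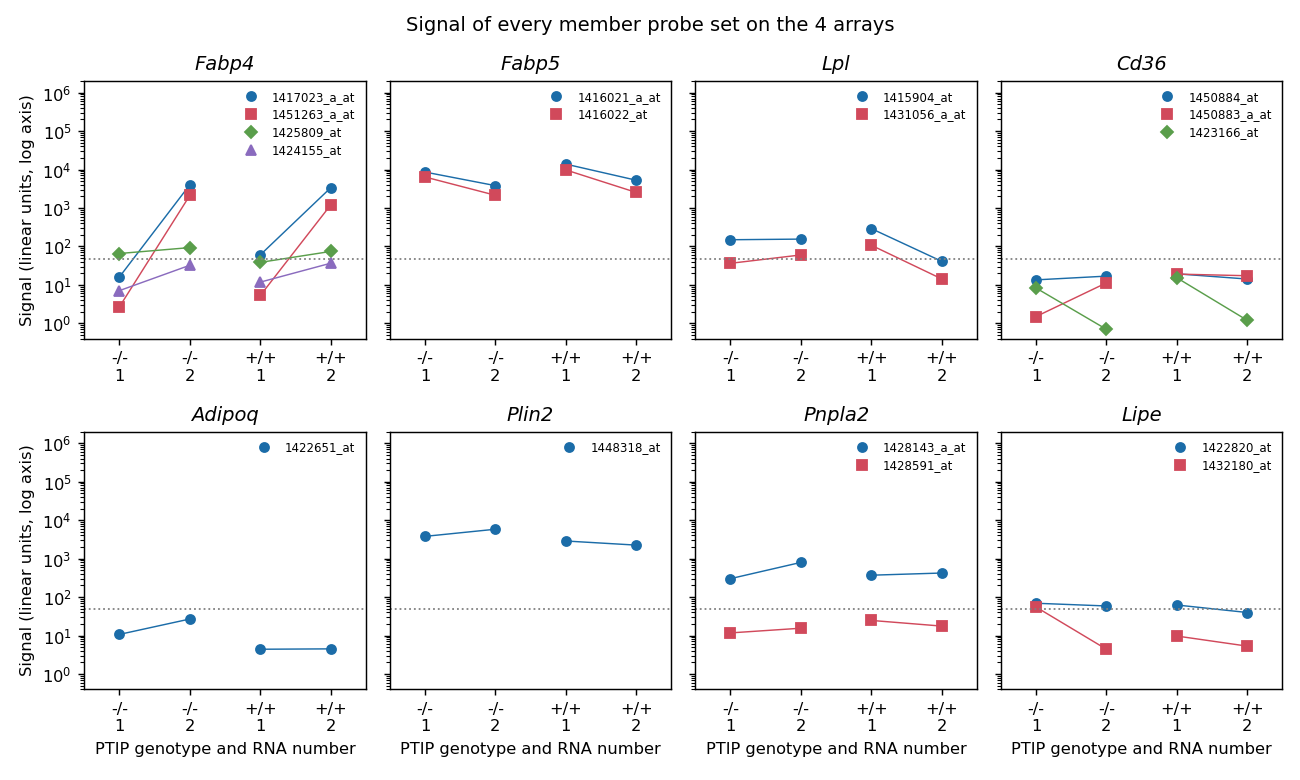
Signal of each of the 17 member probe sets on the 4 arrays, on a log axis, with PTIP -/- arrays 1 and 2 to the left of PTIP +/+ arrays 1 and 2. Lines join the arrays of a genotype and the dotted line is the level of 47.7. Legends give the probe set IDs. The brightest Fabp4 probe set reads 4029.7 and 3351.8 on the number 2 arrays, whereas Cd36 and Adipoq lie under the dotted line on all arrays.

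Fabp5, the paralogue of Fabp4, ran the other way between the numbers. Its brightest probe set gave 8598.7 and 3809.1 in PTIP -/- against 13821.0 and 5268.7 in PTIP +/+. The second read 6399.7 and 2139.4 in PTIP -/- against 9772.5 and 2535.5 in PTIP +/+. On each probe set both number 2 arrays lay below both number 1 arrays, and the probe sets ordered the 4 arrays alike. Number 2 was 2.43-fold lower on the brightest (log2 -1.28 ± 0.22, SE) and 3.40-fold lower on the second (-1.76 ± 0.24, SE). With limma neither passed (adjusted p = 0.136 and 0.104), although the second passed in 3 of 7 alternatives and the brightest in 1 of 9, with adjusted p from 0.00777 to 0.429 over both.

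PTIP -/- cells read lower for Fabp5 than PTIP +/+ cells of the same number. In number 1 the difference was 1.61-fold and 1.53-fold on the 2 probe sets, and in number 2 it was 1.38-fold and 1.18-fold. Over all arrays it was -0.58 ± 0.67 and -0.43 ± 0.89 (log2, SE). The genotypes overlap on both probe sets, because PTIP -/- array 1 lies above PTIP +/+ array 2, and limma gave adjusted p = 0.9998. The spread between the numbers is part of the SE in this fit. With the replicate number as a block, which the labels do not establish, the SE was 0.22 and 0.24. Limma then gave adjusted p = 0.648 and 0.669. Fabp5 is also a gene of keratinocytes, and 6 keratinocyte markers summed to 337.6 and 354.5 in number 2 (PTIP -/- first) against 1316.6 and 1147.4 in number 1. Among them Dsp, a desmosome gene, read 12.4 and 11.0 in number 2 against 884.5 and 726.1 in number 1, at least 16.8-fold lower, whereas Krt5 read 93.3 and 73.4 against 97.4 and 56.5. Their part in the Fabp5 result was not tested.

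Lpl, which encodes lipoprotein lipase, had opposite genotype differences in the 2 numbers. The brightest probe set gave 149.3 and 155.1 in PTIP -/- against 291.0 and 41.0 in PTIP +/+. Both PTIP -/- arrays thus lay between those of PTIP +/+. PTIP -/- was lower by 1.95-fold on the number 1 arrays. On the number 2 arrays it was at least 3.25-fold above PTIP +/+, which was under 47.7 there. A change of at least 1.5-fold each way was met by 1.97% of all probe sets tested. The second, too dim to be tested, read 36.4 and 60.1 in PTIP -/- against 107.4 and 14.3 in PTIP +/+, with the same order of the arrays. Over all arrays the genotype difference of the brightest was 0.48 ± 0.99 (log2, SE; limma adjusted p = 0.9998). The numbers differed by -1.39 ± 0.78 (log2, SE; limma adjusted p = 0.382), and this came from the PTIP +/+ arrays alone, at -2.83, with 0.05 in PTIP -/-.

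Cd36 and Adipoq could not be read on any array. The 3 probe sets of Cd36, the fatty acid receptor, ran from 0.7 to 16.9 in PTIP -/-, and from 1.2 to 19.4 in PTIP +/+. The single probe set of Adipoq read 10.7 and 26.9 in PTIP -/- against 4.4 and 4.5 in PTIP +/+. All these signals lie under 47.7, so no fold is given for either gene, and a low signal does not show that the transcript is absent. Beside the difference of Fabp4 between the numbers, Adipoq, the gene of the fat cell hormone adiponectin, had no readable signal in either genotype. Whether this bears on the Fabp4 result was not tested.

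Plin2, the droplet coat gene, was the one tested member whose genotypes did not overlap. It read 3789.1 and 5810.8 in PTIP -/- against 2871.8 and 2243.9 in PTIP +/+. Both PTIP -/- arrays were above both PTIP +/+ arrays, which held for 1 of the 9 member probe sets tested and for 18% of all those tested, while 0 members and 10.5% of all had both PTIP -/- arrays below. The mean log2 signal was 12.20 ± 0.44 in PTIP -/- against 11.31 ± 0.25 in PTIP +/+ (SD, n = 2), which is 1.85-fold higher in PTIP -/- (log2 0.89 ± 0.35, SE). The size was 1.32-fold in number 1 and 2.59-fold in number 2. With limma the unadjusted p was 0.0612 and the adjusted p 0.9998. The numbers differed little for Plin2, by 0.13 ± 0.33 (log2, SE; limma adjusted p = 0.846), at 0.62 in PTIP -/- against -0.36 in PTIP +/+.

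The lipase genes gave smaller genotype differences over all arrays than Plin2. Pnpla2, which encodes ATGL, the first lipase of droplet fat, read 301.5 and 797.2 in PTIP -/- against 370.4 and 422.0 in PTIP +/+ on its brightest probe set. PTIP -/- array 2 stands above the other 3 arrays there. PTIP -/- was lower by 1.23-fold on the number 1 arrays and higher by 1.89-fold on those of number 2, with 0.31 ± 0.54 over all arrays (log2, SE). The mean of both Pnpla2 probe sets put this below 0, at -0.16, the second probe set being under 47.7 on all arrays at 11.7 to 24.7. Between the numbers, Pnpla2 differed by 0.80 ± 0.38 (log2, SE; limma adjusted p = 0.328). Lipe, which encodes HSL, was close to the level that can be read. It gave 69.1 and 58.7 in PTIP -/- against 62.2 and 39.7 in PTIP +/+ on its brightest probe set, with a genotype difference of 0.36 ± 0.35 and a number difference of -0.44 ± 0.24 (log2, SE). The second Lipe probe set reached 55.1 on PTIP -/- array 1 and was at 4.4 to 9.7 on the others.

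**Figure D2:**
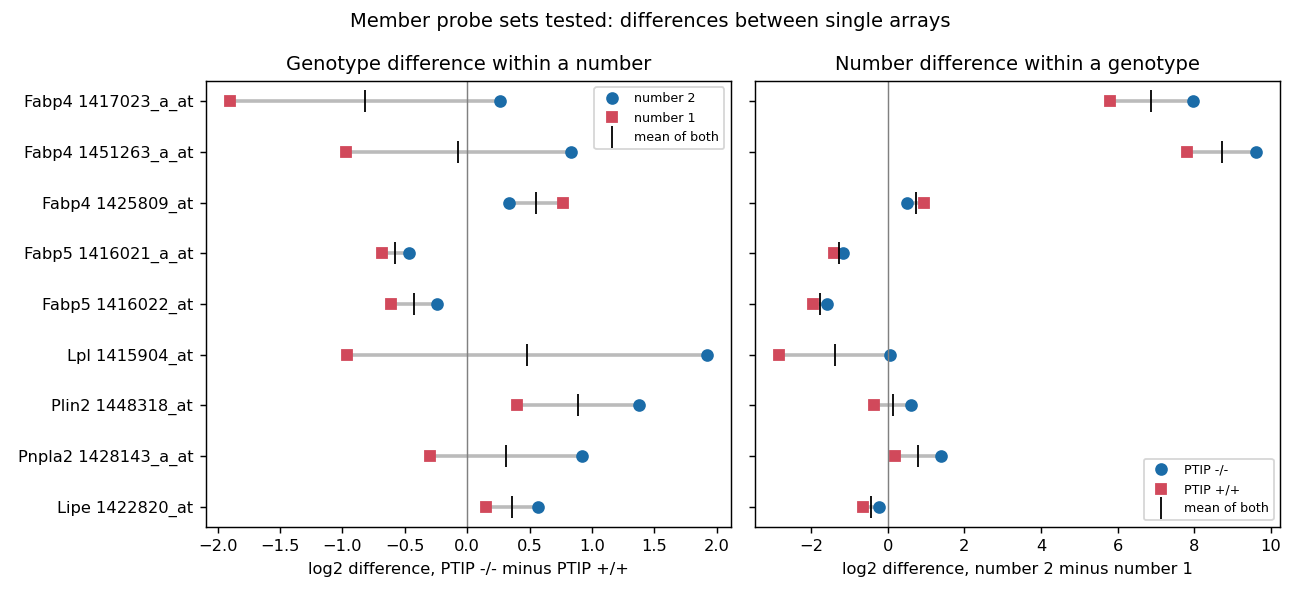
Log2 differences between single arrays for the 9 member probe sets tested: on the left PTIP -/- minus PTIP +/+ within number 2 (circles) and number 1 (squares), on the right number 2 minus number 1 within PTIP -/- (circles) and PTIP +/+ (squares), with the mean of both as a bar. Values are as measured, also under 47.7. Lpl lies at -0.96 in number 1 and on the other side of 0 in number 2, where its bound is 1.70, and the second Fabp4 probe set lies far to the right at values that rest on number 1 signals under 47.7.

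Over all members, the genotype comparison called none. Of the 17 probe sets, 9 were tested, from 6 genes, and 0 passed in limma at an adjusted p under 0.05, against 0% of the 27022 probe sets tested. At an unadjusted p under 0.05 there were likewise 0 members, and 624 of all probe sets (2.31%). PTIP -/- was higher on 5 and lower on 4 of the 9, around a median log2 difference of 0.31, with 0.08 over all probe sets. The difference had the same sign in both numbers for 5 of the 9, those of Fabp5 (both), Plin2, Lipe and the third of Fabp4. With 2 arrays a genotype, the smallest two-sided p of an exact permutation test of 1 probe set is 0.333. Paxip1 itself was not called, at a genotype difference of -4.18 ± 0.37 on its brightest probe set (log2, SE; limma adjusted p = 0.9998). A missed threshold thus does not show that the genotypes are alike in the member genes.

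Between the numbers, 1 of the 9 passed in limma, the second Fabp4 probe set, where 0.355% of all probe sets did (96 of 27022), 0.281% with number 2 higher as here. As it was tested only through its number 2 arrays, nothing is read from this count. At an unadjusted p under 0.05 there were 5 of 9 members, and 20.4% of all probe sets. These are 3 probe sets of Fabp4 and both of Fabp5, and the brightest of Fabp4 too was tested only through number 2 arrays. By the brightest probe set of each gene, 1 member gene passed higher and 1 lower of 6, and 22.8% of all genes passed. Nothing is read from these counts either. Both number 2 arrays lay above both number 1 arrays on 4 of the 9 (21.7% of all probe sets), and below them on 3 (31.8%). The 4 are 3 probe sets of Fabp4 and that of Pnpla2, and the 3 are those of Fabp5 and Lipe. The members thus went both ways between the numbers, and several are probe sets of 1 gene. Their median log2 difference was 0.13, with -0.10 over all probe sets. Centring the arrays on their medians moved the median of all probe sets by 0.19 for the numbers and -0.18 for the genotypes, and turned the direction of no tested member.

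**Figure D3:**
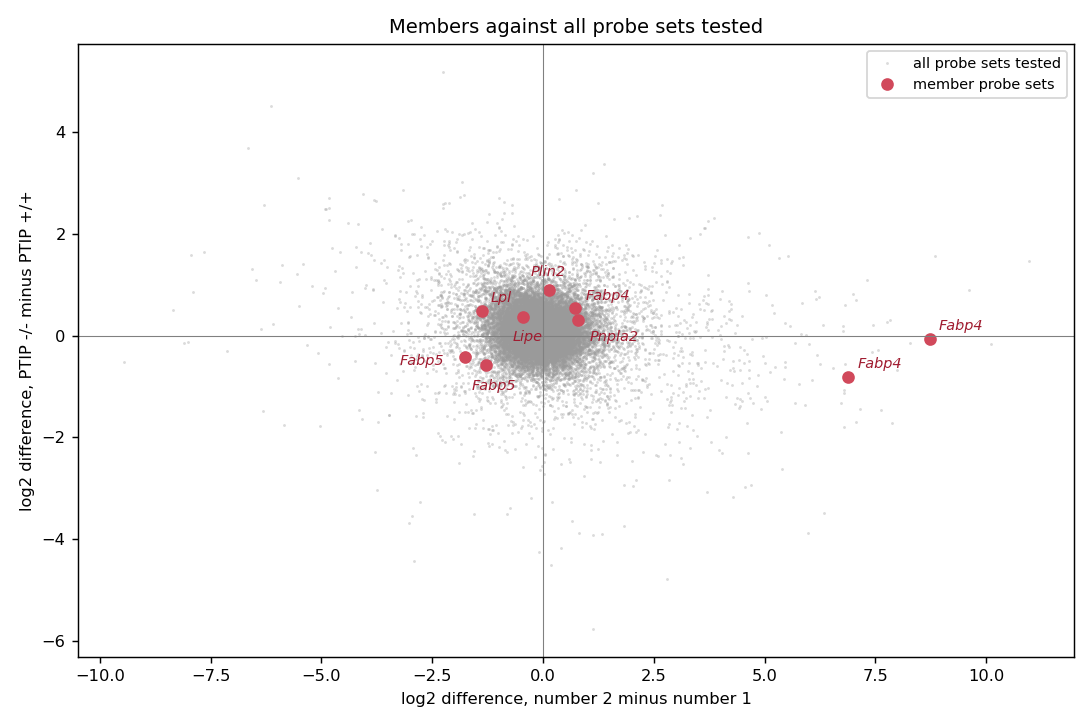
Each probe set tested by its log2 difference between the numbers (number 2 minus number 1, horizontal axis) and between the genotypes (PTIP -/- minus PTIP +/+, vertical axis), with the 9 member probe sets as large red points over all 27022 in grey. Values are as measured, also under 47.7. The second and the brightest Fabp4 probe set lie far to the right, at 8.72 and 6.88, with number 1 signals under 47.7 in 1 or both genotypes, and Plin2 stands at 0.13 and 0.89.

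Genes around the members were taken from 7 lists, each gene by its brightest probe set. Of 80 genes listed, 72 were measured and 60 tested. In limma 0 of the 60 passed between the genotypes and 0 between the numbers, where 0% and 0.64% of all 12509 genes did by their brightest probe sets. At an unadjusted p under 0.05 there were 3 and 16 of the 60, and 2.29% and 22.8% of all genes. Pparg is among those counted for genotype. Both of its PTIP -/- signals lay under 47.7, so it was tested only through its PTIP +/+ arrays. Nothing is read from these counts. All values below are therefore descriptions, with log2 differences given with their SE. By their brightest probe sets, 7014 of all 12509 genes lay above 0 for genotype and 5777 for number (medians 0.05 and -0.05).

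In fatty acid uptake and binding, 5 of 6 tested genes were above 0 for genotype (median 0.09, against 0.05 over all genes on their brightest probe sets) and 3 of 6 for number. The transporter Slc27a1 read 1012.4 and 238.3 in PTIP -/- against 622.5 and 66.6 in PTIP +/+, a genotype difference of 1.27 ± 1.32 and a number difference of -2.66 ± 0.37. Fabp3, the heart form of the binding proteins, read 486.0 and 1449.1 in PTIP -/- against 533.8 and 564.2 in PTIP +/+. Like Pnpla2, it was highest on PTIP -/- array 2. Fabp3 is also a muscle gene, and 6 skeletal muscle markers summed to 491.5 and 470.0 in PTIP -/- against 406.9 and 337.1 in PTIP +/+. Of these, 3 were tested, all above 0 for genotype. Ttn, too dim to be tested, read 54.2 and 28.2 in PTIP -/- against 25.5 and 77.1 in PTIP +/+. The part of these markers in the Fabp3 result was not tested.

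Around lipoprotein lipase, 4 of 7 tested genes were above 0 for genotype and 5 of 7 for number. Lipg, endothelial lipase and a relative of Lpl, read 109.9 and 1007.2 in PTIP -/- against 154.9 and 2957.3 in PTIP +/+. Its number difference was 3.73 ± 0.35 (limma adjusted p = 0.0729), on the side opposite to that of Lpl. The lipoprotein receptor gene Vldlr read 121.3 and 218.0 in PTIP -/- against 769.0 and 1556.7 in PTIP +/+, with a genotype difference of -2.75 ± 0.52. Angptl4, which inhibits lipoprotein lipase and is a known PPAR target, was too dim to be tested.

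Of other lipid droplet and lipolysis genes, 4 of 9 tested were above 0 for genotype and 4 of 9 for number. Bscl2, the seipin gene of droplet formation, read 374.9 and 957.0 in PTIP -/- against 269.4 and 1937.1 in PTIP +/+, higher in number 2 by 2.10 ± 0.44. Mgll, the lipase of monoglycerides, read 725.3 and 364.3 in PTIP -/- against 1717.0 and 389.7 in PTIP +/+, lower in number 2 (-1.57 ± 0.37). Plin5, a perilipin of oxidative tissues, had a genotype difference of 0.70 ± 0.29 at 125.3 and 124.2 in PTIP -/- against 67.0 and 88.1 in PTIP +/+. The droplet genes Cidea, Cidec, Fitm1 and G0s2 were under 47.7 on all arrays.

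Triglyceride assembly was above 0 for genotype in 8 of 13 tested genes (median 0.12) and for number in 4 of 13 (median -0.16). Lpin3 and Lpin1, phosphatases on the way to triglyceride, read higher in PTIP -/-, Lpin3 at 166.5 and 204.4 against 103.3 and 48.8 (1.38 ± 0.46), and Lpin1 at 267.0 and 399.0 against 74.0 and 295.5 (1.14 ± 0.75). Agpat2, an acyltransferase of the same route, read 646.7 and 817.6 in PTIP -/- against 421.3 and 1430.0 in PTIP +/+, with a number difference of 1.05 ± 0.43.

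Fatty acid oxidation and PPAR target genes were above 0 for genotype in 7 of 9 (median 0.23) and for number in 7 of 9 (median 0.40). Cpt1a, the gate of mitochondrial fatty acid entry, read 1423.0 and 2885.7 in PTIP -/- against 732.9 and 1328.1 in PTIP +/+, a genotype difference of 1.04 ± 0.52 and a number difference of 0.94 ± 0.22. Acadl, an acyl-CoA dehydrogenase, differed by 1.04 ± 0.22 between the numbers. Pdk4, a kinase that restrains glucose oxidation, read 169.7 and 90.7 in PTIP -/- against 460.7 and 112.2 in PTIP +/+, below 0 in both comparisons (-0.87 ± 0.80 and -1.47 ± 0.36).

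Among adipokines and their receptors, 5 of 7 tested genes were above 0 for genotype and 4 of 7 for number. Cdh13, which encodes T-cadherin, a receptor of adiponectin, read 2357.0 and 2912.7 in PTIP -/- against 2134.8 and 1105.3 in PTIP +/+ (genotype difference 0.77 ± 0.43). Rbp4, a carrier of retinol, read 82.0 and 262.8 in PTIP -/- against 61.8 and 105.5 in PTIP +/+. Resistin, from Retn, read 168.4 and 14.0 in PTIP -/- against 101.1 and 56.8 in PTIP +/+, a number difference of -2.21 ± 0.75 (4.63-fold lower in number 2, and 2.51-fold with signals raised to 47.7).

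Of the upstream factors, 4 of 9 tested were above 0 for genotype and 6 of 9 for number. Pparg was at least 6.87-fold lower in PTIP -/-, both of whose arrays lay under 47.7. Between the numbers it read higher in number 2 in each genotype, though its PTIP -/- signals have no level. Cebpb and Cebpd, early factors of fat cell formation, read lower in PTIP -/- within each number, and higher in number 2 within each genotype. Cebpb gave 912.4 and 2060.0 in PTIP -/- against 1964.4 and 4512.2 in PTIP +/+ (number difference 1.19 ± 0.22), and Cebpd 434.5 and 1215.1 in PTIP -/- against 991.5 and 2288.4 in PTIP +/+ (1.35 ± 0.23).

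**Figure D4:**
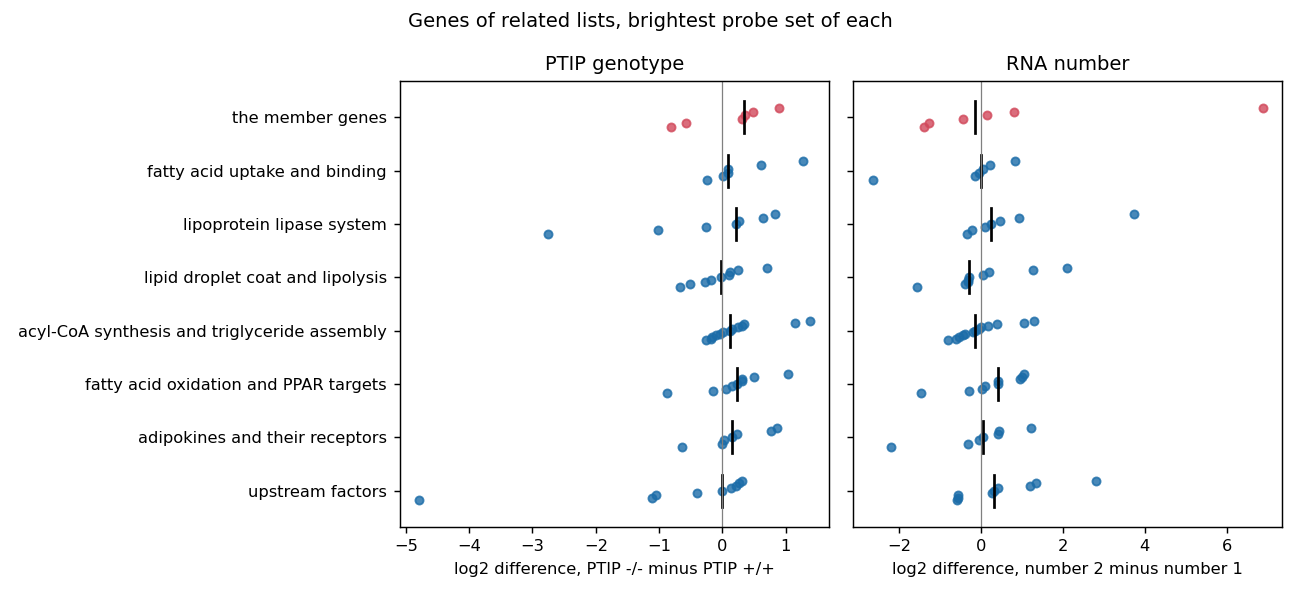
Log2 differences between the genotypes (left, PTIP -/- minus PTIP +/+) and between the RNA numbers (right, number 2 minus number 1) of the tested genes in 7 lists of related genes and of the 6 member genes tested, each by its brightest probe set, with the median as a bar. Values are as measured, also under 47.7. Fabp4 is the point at 6.88 on the right, and Pparg, the lowest on the left, rests on PTIP -/- signals under 47.7 and stands for a value at least 6.87-fold lower.

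Fabp4 had the widest range of its 4 signals among the members, 7.97 on the log2 scale for its brightest probe set, and was used to look for genes of a like pattern. Likeness was the Euclidean distance between log2 profiles over the 4 arrays, each centred on its mean, over 11853 genes. The 8 nearest were Rab3b, Hoxd11, Ecrg4, Hoxa11os, Grb10, Hoxd10, Cpq and Tfap2b, at distances from 0.59 to 1.42. Except for Grb10, both number 1 signals of each lay under 47.7, as did that of Fabp4 in PTIP -/-, so the distances and their order rest in part on signals that have no level. Rab3b, a small GTPase, read 9.0 and 1304.0 in PTIP -/- against 21.8 and 1319.0 in PTIP +/+. Hoxd11 and Hoxd10, which pattern the limb and posterior trunk, read 4.1 and 589.7, and 7.5 and 990.4, in PTIP -/-, against 16.2 and 505.7, and 8.0 and 712.5, in PTIP +/+. Grb10, an adaptor of the insulin receptor, read 102.2 and 10320.4 in PTIP -/- against 134.8 and 17050.4 in PTIP +/+. All 8 were higher on both number 2 arrays than on both number 1 arrays, which the measure of likeness selects for.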

How the data were processed

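RNA of 2 PTIP -/- and 2 PTIP +/+ preparations was hybridised to Affymetrix arrays. The deposited values are linear intensities of 45101 probe sets. The submitters' processing notes name RMA without a version. The values reach 0 once and have an equal trimmed mean (2% off each end) of 500.003 on every array, so they look scaled and not like usual RMA output. For background correction and probe summary the sources used here name no method. There are no detection calls, and the number of arrays limits precision.

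The 64 control probe sets were left out, the 0 was set to 0.1 and signals were taken to log2. The platform annotation gave 34945 probe sets 1 symbol, 932 several and 9160 none. Symbols of 34741 were updated through the RefSeq gene table (GRCm38.p6), used for names. Probe sets with a mean of at least 47.7 were tested (27022), with limma 3.58.1 (R 4.3.3), lmFit and eBayes on all 4 arrays, two-sided, Benjamini-Hochberg adjusted over all. The genotype fit had no covariate (2 residual degrees of freedom). The number fit kept genotype (1). Comparisons within a number or a genotype set 1 array against another and have no test. Where every array of the dimmer group was under 47.7, signals were raised to it and a fold is "at least". The model was tested on simulated data. Alternatives were quantile normalization, median centring, no filter, the 60th percentile as filter, a trended variance, brightest or mean probe set of each gene, raised signals, the replicate block, number alone, and each array left out.

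Members and lists were chosen with earlier results of these data known. Named genes were all members, Paxip1, the 2 largest differences of each kind in each list, and the 8 nearest to the member with the widest range on its brightest probe set (members, RIKEN, Gm, LOC and clone names left out). Others (Angptl4, marker genes and genes under 47.7) were named after their values were seen.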

Additional observations from a re-analysis of the deposited data

Results flagged for a closer look

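The brightest Lpl probe set differed between the genotypes in opposite directions in the 2 numbers, by at least 1.5-fold each way. With signals under 47.7 raised to that level, PTIP -/- minus PTIP +/+ was -0.96 in number 1 and 1.70 in number 2 on the log2 scale. Whether the numbers differ in this was not tested, since 1 array stands for each genotype and number. Among all probe sets tested, 1.97% met the same rule.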

How the results depend on the processing

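No probe set was called between the genotypes in limma under any of the 13 alternatives, the 4 that left out an array (0 in each) and the replicate block (0, with 2018 at an unadjusted p under 0.05) among them. The labels do not say that a number pairs the arrays. Across probe sets, the deviations of same-numbered arrays from their genotype means correlated at 0.64. The count between the numbers was 96, and it was 214 with quantile normalization, 250 with centred arrays, 0 without a level filter (4937 at an unadjusted p under 0.05), 469 with the filter at the 60th percentile, 1446 with a variance trend, 616 with raised signals and 151 without genotype in the fit. The cause was not tested. The number fit with 1 array left out has no residual degrees of freedom and gave values only.

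Genotype differences that turned were all uncalled. The mean of both probe sets gave -0.16 for Pnpla2, and raised signals gave 0.42 for the second of Fabp4. With 1 array left out, differences ran from -4.80 to 3.17 for the brightest and from -4.88 to 4.74 for the second of Fabp4. They ran from -1.27 to 0.12 for the brightest and from -1.40 to 0.55 for the second of Fabp5. For Lpl they ran from -0.94 to 1.89 and for Pnpla2 from -0.39 to 1.01. They stayed above 0 for Plin2 (0.58 to 1.19), for Lipe (0.03 to 0.68) and for the third of Fabp4 (0.08 to 1.02). Number differences ran from -2.83 to 0.055 for Lpl, from -0.36 to 0.62 for Plin2 and from 0.19 to 1.40 for Pnpla2, which was 0.38 with the mean of its probe sets. The call for the second Fabp4 probe set was lost with no level filter (adjusted p = 0.411). Its log2 difference was 7.82 without either PTIP -/- array, 9.62 without either PTIP +/+ array and 5.07 with raised signals.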
